A study of Zea mays with 12 samples.

Results

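Glycine-rich RNA-binding proteins and cold shock proteins were followed in the embryos of germinating maize seeds. The members were the genes whose protein description in the deposited table contains "glycine-rich RNA-binding" or "cold shock" and not "splicing factor". The rule found 11 of the 33589 genes in the table, 7 of them by the first term and 4 by the other, and it used no measured value. The study compared 4 groups of embryos, LT_102, LT_55, CT_102 and CT_55, with 3 biological replicates each and 12 poly(A) libraries in all. Line 102 (Ji853) is the inbred line the study calls sensitive to low temperature, and line 55 (Zao8-3) the one it calls resistant. All seeds took up water for 6 h at 25 °C, and were then kept for 2 h at 10 °C (LT) or at 25 °C (CT). The lines carry no transgene or induced mutation in the labels, and each genotype is 1 inbred line, so their tolerance and their other differences cannot be told apart.

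Glycine-rich RNA-binding proteins of plants carry an RNA recognition motif, followed by a tail rich in glycine. Several of them act as RNA chaperones, which loosen misfolded RNA in the cold, when base pairing is more stable. In Arabidopsis, GRP7 is induced by cold and is under the control of the circadian clock, and other members of the family affect germination at low temperature. "Cold shock protein" is a looser label: it is used for nucleic-acid-binding proteins with a cold shock domain, but CS66 of wheat is a dehydrin, a hydrophilic protein that accumulates in cold or dry tissue.

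The label was checked against the annotation in the table. An RNA binding term stood beside all 7 genes described as glycine-rich RNA-binding and beside 0 of the 4 described as cold shock, so these 4 are called here by their description only. The term "response to cold" stood beside 7 of the 11 members, against 0.896% of the genes in the table, and "cold acclimation" beside 5, against 0.143%. "Response to water deprivation" stood beside 8 members, against 0.968%, and "circadian rhythm" beside 2 (LOC100194217 and GRP), against 0.247%. All 11 were found in a RefSeq gene list, 3 of them through a synonym. LOC103650683 is listed there as a long non-coding RNA although the table describes a protein, and the description of LOC109941454 itself carries a low-quality warning.

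Library totals lay between 44028579 and 67873652 counts. The correlation of log2 CPM was 0.9811 to 0.9939 between libraries of 1 group, 0.9788 to 0.9933 between temperatures within a line and 0.8535 to 0.8702 between the lines. Embryo markers fixed for the check (oleosin, vicilin, globulin-1 and late embryogenesis abundant descriptions, 31 genes) summed to between 27260 and 33890 FPKM in libraries of line 102, and to between 25130 and 26450 FPKM in those of line 55. These lists did not move alike. Globulin-1 had a median sum of 10440 FPKM in CT_102, 3566 in CT_55, 7010 in LT_102 and 4263 in LT_55. The late embryogenesis abundant genes had 14750, 15670, 14320 and 14740 FPKM in the same order. The 29 zein genes, storage proteins of the endosperm, summed to 1.507 to 7.357 FPKM in line 102 and to 25.42 to 43.26 FPKM in line 55. FPKM is the number of fragments per kilobase of transcript, scaled to the depth of the library. No gene of either list was at 0 in every library. The zein signal thus moved with line, beside every line difference given here, and its part in them was not tested.

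The members covered a wide range of levels. In mean FPKM over the 12 libraries, LOC100194217 had 937 and ranked 122 in the table, GRP had 167, LOC100283363 had 103, LOC109941454 had 74.4, pco106379 had 62.4, LOC100283145 had 55.7 and pco145034 had 44.9. LOC103650683 followed with 15.5, LOC100282673 with 2.17 and LOC109941990 with 0.505 FPKM. LOC100382392, described as a cold shock protein-1 precursor, had 4 counts in CT_102 replicate 1 and none in the other 11 libraries, and was not tested. A gene was tested where its FPKM reached 0.5 in at least 3 libraries, which left 10 members and 22985 genes. LOC109941990 reached 0.5 in 4 libraries only, all 3 of CT_102 and 1 of LT_55, so it entered mainly through the group in which it was highest. Among the 7 members with a mean FPKM of at least 40, the coefficient of variation within a group had a median of 5.78% and a range of 0.987% to 20.3%.

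**Figure D1:**
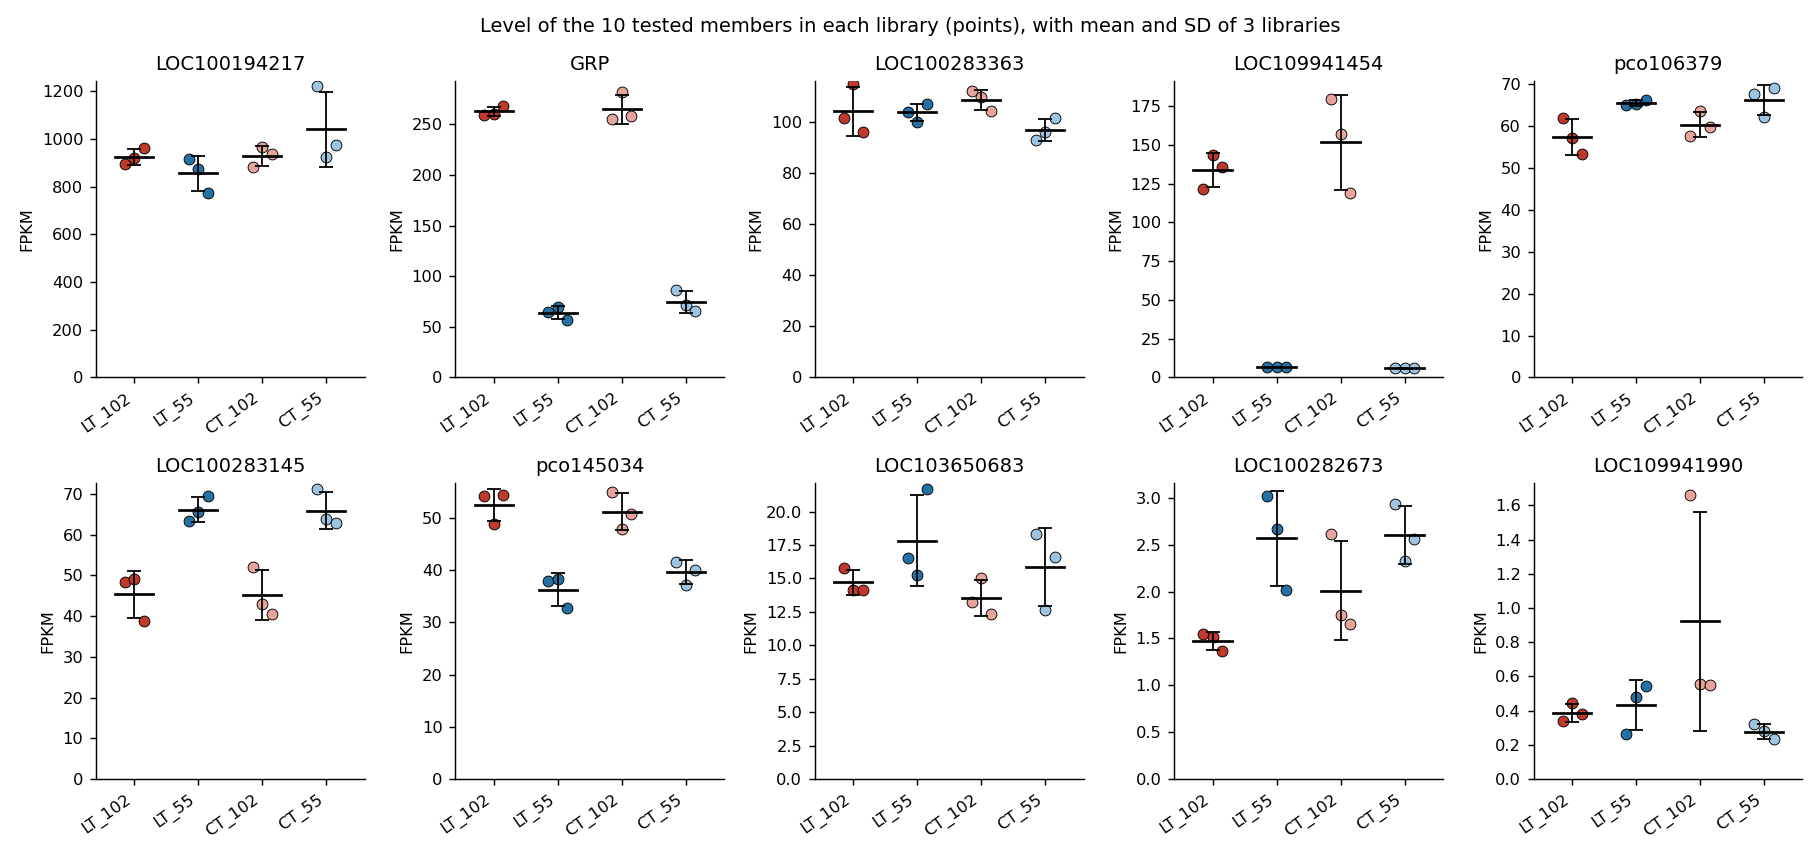
FPKM (vertical axes, each from 0) of the 10 tested members in the 3 libraries of LT_102, LT_55, CT_102 and CT_55, with 1 point per library, a bar at the mean and whiskers of 1 SD. GRP and LOC109941454 sit in separate ranges in the 2 lines at both temperatures, while 10 °C and 25 °C lie close together within a line.

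The genes lie on chromosomes 1, 2, 3, 5 and 8 of B73 RefGen_v4. LOC100194217, chromosome 5 from 14451080 to 14451974 on the minus strand, lies 360 kb from LOC100283363 (5, 14090497 to 14091484, minus strand), with 12 genes between them. LOC109941454 (8, 99105742 to 99106896, plus strand) lies 874 kb from LOC109941990 (8, 99981340 to 99982452, plus strand), with 13 genes between them. The other members described in full are GRP (3, 108034620 to 108035482, minus strand), pco106379 (8, 167250676 to 167252718, minus strand), LOC100283145 (1, 301674620 to 301677748, plus strand) and LOC100282673 (2, 239865771 to 239869056, minus strand). These spans are whole genes, so exons and UTRs were not told apart. No sequence of the members was used here, and reads shared with near-identical copies could not be assessed.

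The first question was how the lines differ at 10 °C, which the study put at the centre of its RNA-seq comparison. Between the lines, a call needed at least a 1.5-fold difference together with an unadjusted p under 0.05 in edgeR's quasi-likelihood test, and Benjamini-Hochberg adjusted p-values, taken over every tested gene, are given beside it. Of the 10 tested members, 2 were called higher in line 102 (GRP and LOC109941454), 2 lower (LOC100282673 and LOC100283145) and 6 were not called. Over all tested genes 51.1% were called, 25.1% higher and 26.1% lower, so 4 called members of 10 are no excess over the background. The FPKM of the lines did not overlap for 6 of the 10 members, 3 higher and 3 lower, against 69% of all tested genes. The median log2 fold change was -0.11 over the members and 0.00298 over all tested genes, and the median absolute value 0.407 and 0.697.

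GRP, described as glycine-rich RNA-binding protein 2, was the second most abundant member and was higher in line 102 by close to the same amount at both temperatures. Its FPKM was 259.8, 260.6 and 268.4 in LT_102, against 64.5, 69.9 and 56.9 in LT_55. At 25 °C it was 255.5, 281.7 and 258.2 in CT_102, against 86.4, 71.4 and 65.4 in CT_55. Every library of line 102 was above every library of line 55. The log2 fold change of line 102 over line 55 was 2.00 (SE 0.11, edgeR adjusted p = 1.7e-08) at 10 °C, a 4.0-fold difference with a 95% interval of 3.39 to 4.71, and 1.78 (SE 0.11, edgeR adjusted p = 4.3e-08) at 25 °C, a 3.44-fold difference (2.92 to 4.06). The exact permutation test of 3 libraries against 3 gave its smallest possible p, 0.1, in each case.

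LOC109941454, the CS66-like gene, had the largest line difference of the members. Its FPKM was 121.7, 143.4 and 135.4 in LT_102, against 6.58, 6.47 and 6.96 in LT_55, and 179.5, 156.7 and 118.7 in CT_102, against 5.82, 6.38 and 5.80 in CT_55. The lines did not overlap, and the spread was widest in CT_102, with a coefficient of variation of 20.3%. The log2 fold change was 4.28 (SE 0.14, edgeR adjusted p = 3.8e-10) at 10 °C, or 19.4-fold (95% interval 15.7 to 23.8), and 4.60 (SE 0.14, edgeR adjusted p = 2.9e-10) at 25 °C, or 24.3-fold (19.7 to 30.0). Among all tested genes this absolute log2 difference ranked 2091 at 10 °C and 1923 at 25 °C. The reads of both lines were mapped to B73, an inbred line other than these, and a lower amount of transcript in line 55 and a copy that is missing or diverged there cannot be told apart. The same limit holds for GRP and, with a diverged copy in either line, for the line differences of the other members. In bulk embryos, fewer cells that express a gene and less RNA per cell cannot be told apart either, here or for the other members.

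LOC109941990, the other gene described as CS66, did not follow its neighbour on chromosome 8. It had 16, 25 and 22 counts in LT_102, against 15, 30 and 36 in LT_55, and 92, 30 and 30 in CT_102, against 14, 16 and 13 in CT_55. At 10 °C the lines overlapped and the log2 fold change was -0.18 (SE 0.50, edgeR adjusted p = 0.77). At 25 °C it was 1.63 (SE 0.51, unadjusted p = 0.0078, edgeR adjusted p = 0.015), and CT_102 replicate 1 carried 92 of the counts: without that library the value was 0.93 (unadjusted p = 0.077), which is no longer called.

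**Figure D2:**
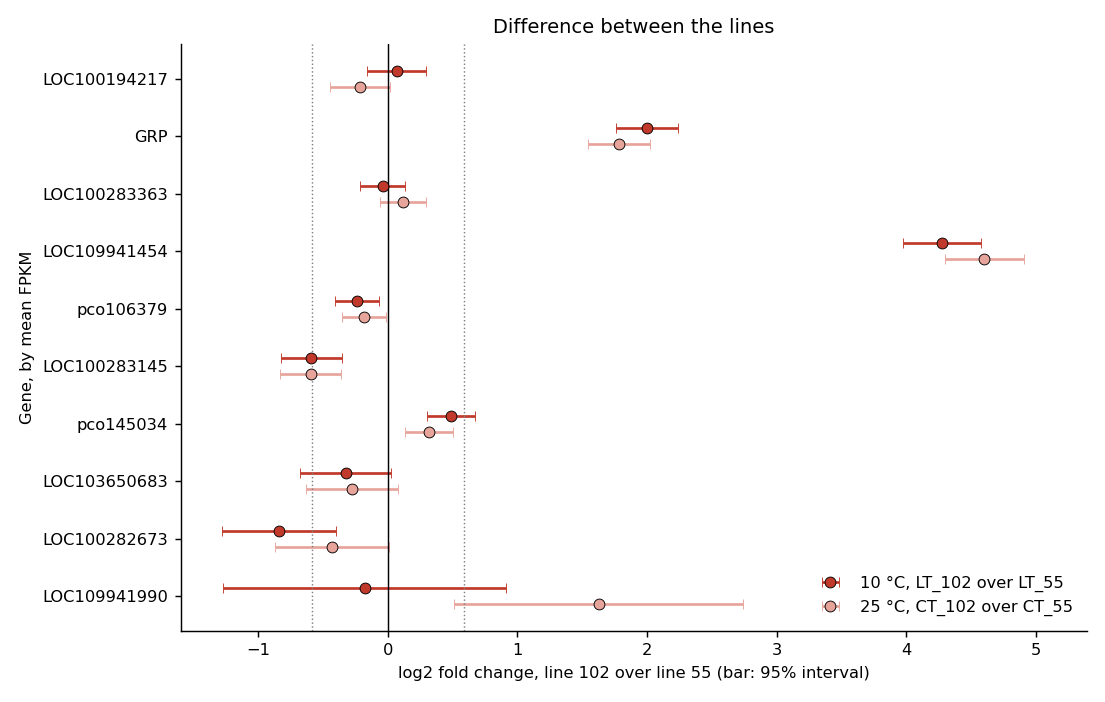
Log2 fold change of line 102 over line 55 (horizontal axis) for the 10 tested members, ordered down the page by mean FPKM, at 10 °C (dark red) and 25 °C (light red), with bars for the 95% interval and dotted lines at a 1.5-fold difference on either side. LOC109941454 and GRP stand far to the right, LOC100283145 lies on the left threshold, and LOC109941990 has the widest intervals.

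The genes that were lower in line 102 differed far less. LOC100283145, glycine-rich RNA-binding protein 8, had 48.3, 49.1 and 38.8 FPKM in LT_102, against 63.5, 65.6 and 69.4 FPKM in LT_55. In CT_102 it had 52.2, 43.0 and 40.5 FPKM, against 71.2, 63.8 and 62.9 FPKM in CT_55, so every library of line 102 was below every library of line 55. The log2 fold change was -0.59 (SE 0.11, edgeR adjusted p = 0.00042) at 10 °C and -0.60 (SE 0.11, edgeR adjusted p = 0.00042) at 25 °C. Both values stand at the fold threshold: at 10 °C the call was lost without LT_102 replicate 3 (-0.49), LT_55 replicate 3 (-0.53), CT_55 replicate 2 (-0.58) or CT_55 replicate 3 (-0.58), and at 25 °C without CT_55 replicate 1 (-0.54), CT_102 replicate 2 (-0.56) or CT_102 replicate 3 (-0.54). The gene shares 1019 bp with LOC103644296, an abscisic acid 8'-hydroxylase on the opposite strand, which was also lower in line 102, with a log2 fold change of -2.0 at 10 °C and -2.16 at 25 °C. That gene had 370 to 416 counts in LT_102, against 1484 to 1895 counts in LT_55. Whether the counting used strand is not stated, and reads of the overlapping genes cannot be told apart without it.

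LOC100282673, glycine-rich RNA-binding protein 7 isoform 1, was expressed at a low level. The number is that of its description, no circadian rhythm term stood beside it, and its relation to GRP7 of Arabidopsis was not tested. It had 1.54, 1.51 and 1.37 FPKM in LT_102, against 3.02, 2.67 and 2.02 FPKM in LT_55, without overlap. At 25 °C the values overlapped, with 2.62, 1.76 and 1.66 FPKM in CT_102, against 2.93, 2.33 and 2.56 FPKM in CT_55. The log2 fold change was -0.84 (SE 0.20, edgeR adjusted p = 0.0030) at 10 °C and -0.43 (SE 0.20, unadjusted p = 0.053) at 25 °C. The call at 10 °C alone does not show that the lines differ more in the cold: the interaction had a log2 value of -0.41 (SE 0.28, unadjusted p = 0.17, edgeR adjusted p = 0.87). Without CT_102 replicate 1, the highest of its group, the value at 25 °C was -0.64 and was called.

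At 25 °C, 3 tested members were called higher in line 102 (GRP, LOC109941454 and LOC109941990), 1 lower (LOC100283145) and 6 were not called. The call of LOC109941990 rests on CT_102, the group through which it passed the filter, and it was lost without CT_102 replicate 1, which leaves 2 members higher. Over all tested genes 48.1% were called, 24.3% higher and 23.8% lower. The lines did not overlap for 6 members, 5 higher and 1 lower, against 66.6% of all tested genes. LOC109941990 is among the 5 higher, and its lack of overlap also draws on CT_102, the group that admitted it. The median log2 fold change was -0.0336 over the members and 0.0102 over all tested genes. Called in the same direction at both temperatures were 3 members (GRP, LOC109941454 and LOC100283145). At 1 temperature 2 were called, LOC100282673 at 10 °C and LOC109941990, with the limit just given, at 25 °C, and 5 were called at neither. Over all tested genes 42.6% were called in the same direction at both. The comparisons at 10 °C and 25 °C use different libraries of the same lines, fitted with 1 estimate of the spread.

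The member with the highest level showed no such contrast. LOC100194217 is the abscisic acid-inducible glycine-rich RNA-binding protein, a class first known in maize from embryos, where abscisic acid and water loss raise its transcript. It had 892.9, 917.8 and 961.0 FPKM in LT_102, against 916.5, 875.6 and 773.9 FPKM in LT_55, and 883.2, 965.9 and 936.9 FPKM in CT_102, against 1220, 924.2 and 976.1 FPKM in CT_55. The lines overlapped at both temperatures, and CT_55 replicate 1 stood highest. The log2 fold change was 0.067 (95% interval -0.16 to 0.30) at 10 °C and -0.21 (-0.44 to 0.019) at 25 °C, neither of them called.

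LOC100283363, a cold shock protein-1 precursor, was also close to equal in the lines. It had 101.6, 115.0 and 96.1 FPKM in LT_102, against 104.1, 100.2 and 107.1 FPKM in LT_55, and 112.1, 109.8 and 104.5 FPKM in CT_102, against 93.1, 96.1 and 101.6 FPKM in CT_55. The lines overlapped at 10 °C and not at 25 °C, but the log2 fold change was small at both, -0.040 (95% interval -0.21 to 0.13) and 0.12 (-0.058 to 0.29). The intervals leave room for a difference of at most 1.22-fold at 25 °C.

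pco106379 is described as glycine-rich RNA-binding protein 2, mitochondrial, a type that in Arabidopsis affects germination in the cold. It had 61.8, 57.1 and 53.3 FPKM in LT_102, against 65.1, 65.3 and 66.3 FPKM in LT_55, and 57.6, 63.6 and 59.8 FPKM in CT_102, against 67.7, 62.1 and 69.0 FPKM in CT_55. The lines did not overlap at 10 °C and overlapped at 25 °C. The log2 fold change was -0.24 (SE 0.078, edgeR adjusted p = 0.017) at 10 °C and -0.18 (SE 0.078, edgeR adjusted p = 0.058) at 25 °C, both below the fold threshold. The other mitochondrial member, LOC103650683, ranged over 14.1 to 15.8 FPKM in LT_102, against 15.2 to 21.7 FPKM in LT_55, and over 12.4 to 15.04 FPKM in CT_102, against 12.6 to 18.3 FPKM in CT_55, and was not called.

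pco145034 is described as RZ1B, a type of glycine-rich protein that also carries a zinc finger and, in Arabidopsis, takes part in splicing. It ranged over 48.8 to 54.4 FPKM in LT_102, against 32.7 to 38.2 FPKM in LT_55, and over 47.8 to 54.9 FPKM in CT_102, against 37.2 to 41.6 FPKM in CT_55. Every library of line 102 was above every library of line 55, and the log2 fold change was 0.49 (SE 0.084, edgeR adjusted p = 0.00029) at 10 °C and 0.32 (SE 0.084, edgeR adjusted p = 0.0060) at 25 °C. Both passed the adjusted p but not the fold threshold. By adjusted p under 0.05 at any fold, 6 of the 10 members differed between lines at 10 °C, against 63.4% of all tested genes. At 25 °C 5 members differed, against 59.9%, so these counts are no excess over the background. LOC109941990, which passed the filter mainly through CT_102, is among the 5 at 25 °C. Without CT_102 replicate 1 its edgeR adjusted p there was 0.12.

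Ratios of FPKM within a library do not depend on the total of that library, but they share the limit of mapping to B73 given above. LOC100194217 over GRP was 3.51 ± 0.072 in LT_102 and 13.4 ± 0.86 in LT_55, and 3.50 ± 0.11 in CT_102 and 13.99 ± 0.996 in CT_55 (SD, n = 3 each). LOC100283145 over pco145034 was 0.871 ± 0.15 in LT_102 and 1.84 ± 0.25 in LT_55, and 0.883 ± 0.077 in CT_102 and 1.66 ± 0.082 in CT_55. The order of protein 8 and RZ1B was thus reversed in the means of the lines, with 1 library of LT_102, at 1.01, at equality. These pairs were chosen after the values were seen and are given as a description.

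**Figure D3:**
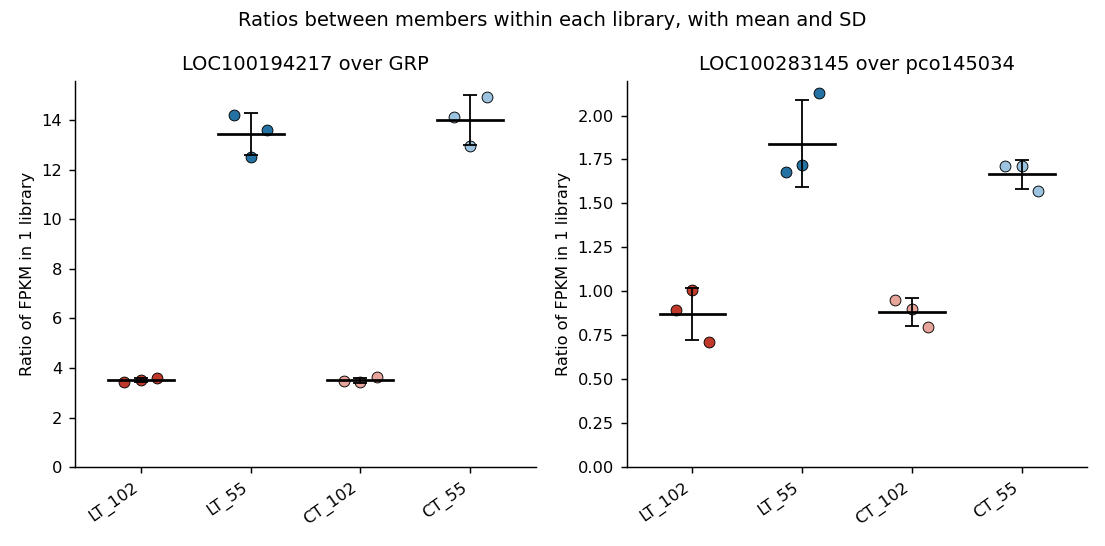
Ratio of FPKM between 2 members within each library (vertical axes, from 0), for LOC100194217 over GRP on the left and LOC100283145 over pco145034 on the right, with 1 point per library, a bar at the mean and whiskers of 1 SD. Within a line the groups at 10 °C and 25 °C lie together, and the lines lie apart.

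The summed FPKM of the 7 glycine-rich RNA-binding genes was 1358 ± 29.6 in LT_102 and 1107 ± 75.2 in LT_55, and 1366 ± 50.0 in CT_102 and 1305 ± 179 in CT_55 (SD, n = 3 each). LOC100194217 made up 68.01% of this sum in LT_102 and 77.2% in LT_55, and 67.97% in CT_102 and 79.6% in CT_55. The sum was higher in line 102 by 250.8 FPKM at 10 °C, where GRP differed by 199.1 FPKM and LOC100194217 by 68.6 FPKM. At 25 °C it was higher by 61.2 FPKM, with a difference of 190.7 FPKM for GRP and of -111.5 FPKM for LOC100194217.

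The next question was what 2 h at 10 °C did to these genes in each line. Here a gene was called at an edgeR adjusted p under 0.05. In line 102, 0 of the 10 members were called, against 0.679% of all tested genes, and in line 55 0 of 10, against 0.0522%. The cold effect averaged over the lines called 0 of 10, against 0.618%, and the line by temperature interaction 0 of 10, against 0.00435%, which is 1 gene. At an unadjusted p under 0.05 there were 2 members in line 102, against 13% of all tested genes, and 2 in line 55, against 4.43%. The shared effect had 0, against 12.6%, and the interaction 1, against 6.33%. LOC109941990, which passed the filter mainly through CT_102, is counted in line 102 and in the interaction. With so few genes called in the whole table, 0 among 10 members is close to the background.

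DESeq2 also called 0 members at an adjusted p under 0.05 in these 4 comparisons, against 3.79% of the genes it tested in line 102, 0.654% in line 55, 3.32% in the shared effect and 0.566% in the interaction. At an unadjusted p under 0.05 it had 1 member in line 102, against 14.4%, 2 in line 55, against 5.18%, 0 in the shared effect, against 13.9%, and 1 in the interaction, against 7.34%. limma on log2(FPKM + 0.1) called 0 at the adjusted p, against 0.344% of genes in line 102, 0.0305% in line 55, 0.27% in the shared effect and 0.0131% in the interaction. At the unadjusted p it had 1 member in line 102, against 13.7%, 1 in line 55, against 4.57%, 0 in the shared effect, against 12.5%, and 1 in the interaction, against 5.92%. The lowest edgeR adjusted p of a member was 0.33 in line 102, 0.93 in line 55, 0.43 in the shared effect and 0.73 in the interaction.

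The size of the responses was bounded by their intervals. For the 7 members with a mean FPKM of at least 40, the log2 cold responses lay between -0.29 and 0.14 in the lines, and the outermost bounds of their 95% intervals were -0.52 and 0.42, or 0.695-fold and 1.34-fold. Of the 10 tested members, 8 had an absolute log2 response under 0.3 in both lines. The narrowest case was pco106379, with intervals of -0.25 to 0.090 in line 102 and -0.19 to 0.14 in line 55. These bounds hold for 2 h at 10 °C, the only time sampled.

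**Figure D4:**
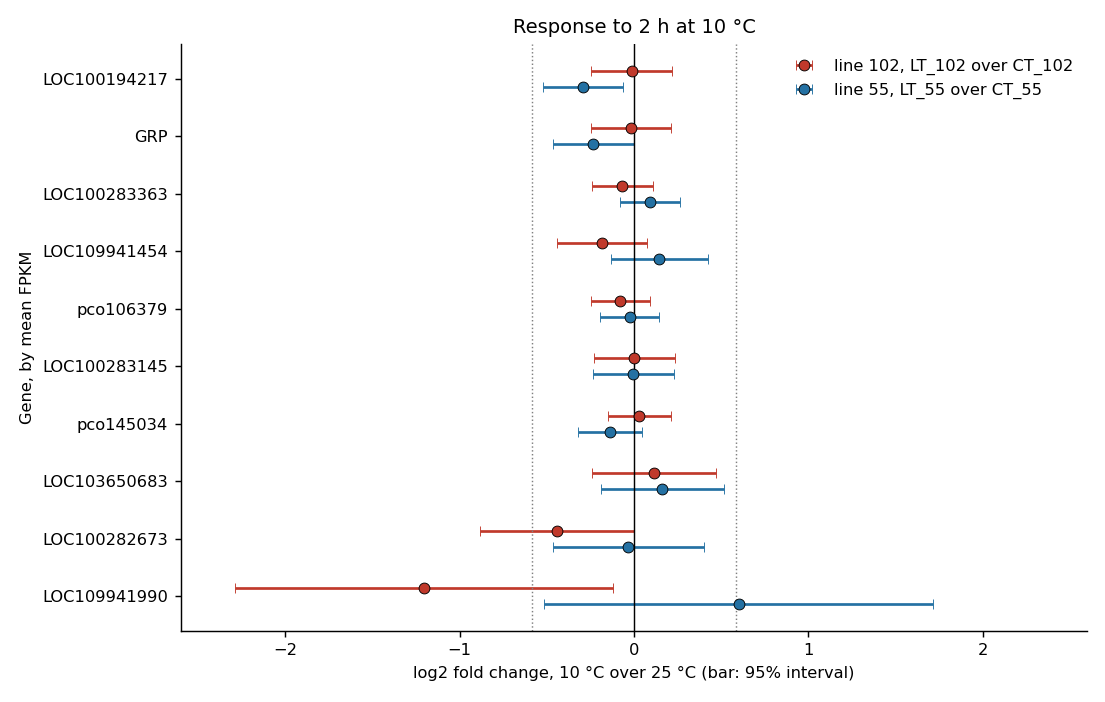
Log2 fold change of 10 °C over 25 °C (horizontal axis) for the 10 tested members, ordered down the page by mean FPKM, in line 102 (red, LT_102 over CT_102) and line 55 (blue, LT_55 over CT_55), with bars for the 95% interval and dotted lines at a 1.5-fold change on either side. For the 7 members with a mean FPKM of at least 40 no interval reaches a dotted line, and LOC109941990, with few counts, has the widest bars.

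The members at an unadjusted p under 0.05 were close to that threshold. In line 55, LOC100194217 had a log2 response of -0.29 (SE 0.11, unadjusted p = 0.018, edgeR adjusted p = 0.93), with every LT_55 library below every CT_55 library, and GRP had -0.23 (SE 0.11, unadjusted p = 0.048, edgeR adjusted p = 1), with overlap. Both moved with CT_55 replicate 1, the highest library for each: without it the values were -0.16 (unadjusted p = 0.10 in edgeR) and -0.11 (unadjusted p = 0.27 in edgeR). In line 102 these genes had log2 responses of -0.013 and -0.018. The difference between the lines was not shown for either gene: the interaction had an unadjusted p of 0.088 for LOC100194217 and 0.17 for GRP in edgeR.

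In line 102, LOC100282673 had a log2 response of -0.44 (SE 0.20, unadjusted p = 0.049, edgeR adjusted p = 0.38) and LOC109941990 one of -1.20 (SE 0.50, unadjusted p = 0.032, edgeR adjusted p = 0.33). Neither gene's LT_102 libraries overlapped with its CT_102 libraries. LOC109941990 passed the filter mainly through CT_102, where every library reached 0.5 FPKM, while no LT_102 library did. Its lack of overlap, its response and its interaction value thus draw on the group that admitted it, and are no support for a cold response. LOC109941990 also gave the lowest interaction p among the members, with a log2 value of -1.81 (SE 0.72, unadjusted p = 0.027, edgeR adjusted p = 0.73). Without CT_102 replicate 1, the library with 92 counts, its response in line 102 was -0.51 and its interaction -1.11, and the response of LOC100282673 was -0.23, with unadjusted p-values of 0.30, 0.11 and 0.27 in edgeR. The 10 °C and 25 °C libraries did not overlap for 2 of the 10 members in line 102, both lower and LOC109941990 among them, against 26.1% of all tested genes. In line 55 this held for 2 members, LOC100194217 lower and LOC109941454 higher, against 7.23%. The response of LOC109941454 in line 55 was 0.14 (95% interval -0.13 to 0.42).

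The interaction of the line with temperature was not called for the members with a clear line difference. It was 0.22 (95% interval -0.11 to 0.54) for GRP, -0.33 (-0.71 to 0.052) for LOC109941454 and 0.0057 (-0.32 to 0.34) for LOC100283145, on the log2 scale. Over all tested genes the median absolute interaction was 0.194. The intervals are wide enough for the line difference of LOC109941454 to be 0.612-fold to 1.04-fold as large at 10 °C as at 25 °C. The median log2 response was -0.0419 over the members and 0.00811 over all tested genes in line 102, and -0.0136 and 0.00255 in line 55.

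Other genes that work with RNA or are named for cold were counted as lists. At 10 °C, the 42 tested DEAD-box RNA helicases, which unwind RNA, had 12 called higher in line 102 and 10 lower. The 49 other RNA-binding proteins had 12 higher and 4 lower. The 18 polyadenylate-binding proteins, which bind the tails of mRNA, had 10 higher and 2 lower. The 4 tested genes described as cold-regulated or related had 1 higher and 0 lower. These counts stand beside 25.1% higher and 26.1% lower over all tested genes: genes called higher made up 28.6% of the helicases, 24.5% of the other RNA-binding proteins, 55.6% of the polyadenylate-binding proteins and 25% of the cold-regulated genes, and those called lower 23.8%, 8.16%, 11.1% and 0% in the same order. At 25 °C the numbers higher and lower were 10 and 8 for the helicases, 13 and 3 for the other RNA-binding proteins, 10 and 2 for the polyadenylate-binding proteins and 1 and 0 for the cold-regulated genes, beside 24.3% and 23.8% of all tested genes. In the cold responses of both lines, the shared effect and the interaction, 0 genes of these lists were called. At an unadjusted p under 0.05 the shared effect had 13 of 42 helicases, 3 of 49 other RNA-binding proteins, 3 of 18 polyadenylate-binding proteins and 0 of 4 cold-regulated genes, against 12.6% of all tested genes. The median shared log2 effect was 0.068 for the helicases, 0.0367, 0.087 and 0.0209 for the other lists in that order, -0.0526 for the members and 0.00762 for all tested genes.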

How the data were processed

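The authors sequenced poly(A) RNA of embryos, mapped its reads to B73 RefGen_v4 and deposited a single table, which holds counts for each gene beside FPKM computed by the authors. HISAT, StringTie and edgeR are named in the submitters' processing notes, without versions or roles. Of the counts from 1 to 12, 50.1% were multiples of 4, which no source used here explains. The tests took the counts as deposited, as if they were raw. How reads were counted, and whether by strand, is not given in the sources used here.

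Counts were tested with edgeR 4.0.16 (limma 3.58.1, R 4.3.3): quasi-likelihood F test, TMM, 4 groups without intercept, 12 libraries, FPKM of at least 0.5 in 3 libraries. The procedure was tested on data simulated with a common mean per gene and known changes in LT_102 only. That setting lacks the wide line difference of these data, so it does not cover the line comparisons. Standard errors are the size of the log2 fold change divided by the square root of F. The members and lists were chosen with earlier results of these data known. Described in full were members called in a cold comparison, the 6 with the highest mean FPKM, and up to 3 per direction with the largest called line difference at 10 °C and a mean FPKM of at least 1, together 7. The other 4 are named after their values were seen. Alternatives were no filter, an FPKM of at least 1, median ratio scaling, DESeq2 1.42.0, limma on log2(FPKM + 0.1) or log2(FPKM + 1), other thresholds, a replicate block and leaving out each library. Tables and figures were made with Python 3.11.15, pandas 2.3.3, scipy 1.17.1 and matplotlib 3.10.9. RefSeq names came from the list of assembly Zm-B73-REFERENCE-NAM-5.0, whose coordinates were not used.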

Additional observations from a re-analysis of the deposited data

How the results depend on the processing

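Over 1214 values of members under the alternatives, 0 reversed, 18 lost and 3 gained a call, and 58 changed sign without a call (largest absolute log2 value 0.135). In the cold responses, the shared effect and the interaction, 0 of 756 values had an adjusted p under 0.05, the lowest being 0.141. The line differences of GRP and LOC109941454 were called under every alternative run. Members lower in line 102 at 10 °C numbered 1 with an FPKM of at least 1 or limma on log2(FPKM + 0.1), 0 with limma on log2(FPKM + 1) or a fold threshold of 2, and 1 to 2 without 1 library. At 25 °C the number was 0 with either limma fit or that threshold, and 0 to 2 without 1 library: LOC100283145, at the fold threshold, lost its call in the cases with 0, and LOC100282673 gained one without CT_102 replicate 1. With an unadjusted p and the fold threshold in the cold comparisons, LOC109941990 alone was called (1 member each). It was lower at 10 °C than at 25 °C within line 102, and negative in the interaction. Both calls draw on CT_102, the group through which it mainly passed the filter.

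The number of genes called in the whole table moved far more. In line 55 (12 genes) it was 23 without a filter, 21 with median ratio scaling, 150 with DESeq2, 7 and 4 with limma on log2(FPKM + 0.1) and log2(FPKM + 1), 604 with the unadjusted p and fold threshold, and 0 to 60 without 1 library. In line 102 (156 genes) it was 870 with DESeq2, 79 with limma at 0.1, 1212 with the unadjusted p, and 7 to 381 without 1 library. For the shared effect (142 genes) it was 762 with DESeq2, 62 and 76 with limma at 0.1 and 1, 908 with the unadjusted p, and 19 to 324 without 1 library. For the interaction (1 gene) it was 130 with DESeq2, 3 with limma at 0.1, 1002 with the unadjusted p, and 0 to 5 without 1 library. With the replicate block the numbers were 31 in line 55, 318 in line 102, 264 shared and 3 in the interaction, and no member's call changed. Deviations of libraries with the same number had a mean correlation of 0.0772, with 4 of 18 pairs above 0.1, against -0.0371 and 2 of 36 pairs for different numbers. Between LT_55 and CT_55 the same-numbered values were 0.0157, 0.415 and 0.531, and different numbers ranged from -0.524 to 0.233. Since not every pair passed 0.1 and no source says that a number marks a shared source, the libraries were not treated as paired. The cause of these shifts was not tested. Depth limits LOC109941990, with 13 to 92 counts in a library.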

Other observations

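The gene grp1 (chromosome 1, 180447176 to 180448088, minus strand) is described as a partial glycine-rich RNA binding protein, without the hyphen that the rule asks for, and so is not a member. It was chosen after its values were seen. With 983 ± 95.4 FPKM in LT_102 and 1086 ± 169 FPKM in LT_55, and 983 ± 51.7 FPKM in CT_102 and 1167 ± 83.0 FPKM in CT_55 (SD, n = 3 each), it was expressed at about the level of LOC100194217. Its log2 fold change of line 102 over line 55 was -0.19 (edgeR adjusted p = 0.18) at 10 °C and -0.30 (edgeR adjusted p = 0.048) at 25 °C, and neither was called at the fold threshold. Its response to 10 °C was -0.0049 in line 102 and -0.11 in line 55, also not called.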
